A study of Mus musculus with 2 samples.

Results

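The genes described here are 10 antioxidant enzymes of bone marrow: the superoxide dismutases Sod1 and Sod2, catalase (Cat), the glutathione peroxidases Gpx1 and Gpx4, the peroxiredoxins Prdx1, Prdx2 and Prdx3, thioredoxin reductase Txnrd1 and the glutathione synthesis gene Gclm. They were chosen by name, and every probe that the platform annotation pairs with them was used, 18 of 45281 probes and 10 of 19057 named genes. RNA came from the femoral marrow of 8-day-old mice and was read on bead arrays of the Illumina MouseWG-6 v2.0 type, which measure each transcript through 1 or more oligonucleotide probes. The groups were wild type (1 array) and Dnmt2-/- (1 array), and in what follows the wild type array and the Dnmt2-/- array mean the arrays so labelled. The labels give no strain, no sex and no number of animals behind each RNA, and they do not say which part of Dnmt2 is missing. Dnmt2 (Trdmt1) encodes a methyltransferase of transfer RNA.

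Superoxide leaks from respiration and is made on purpose by phagocytes. Superoxide dismutases turn it into hydrogen peroxide, which catalase, glutathione peroxidases and peroxiredoxins then remove. Glutathione and thioredoxin supply the electrons for glutathione peroxidases and peroxiredoxins and are kept reduced with NADPH. Marrow holds developing red cells, which carry oxygen beside haem iron, and developing neutrophils, which are built to make oxidants.

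Each genotype had a single array, so no test was run and no difference has an error. Each difference is the log2 ratio of the Dnmt2-/- array over the wild type array after background correction and quantile normalization, and it describes these 2 arrays. The nearest measure of noise was the spread between different probes of the same gene, an SD of 0.29 on the log2 scale over 3375 genes, which leaves out the spread between animals. Detection means a detection p-value below 0.01, which 41.4% of probes met on the wild type array and 43.2% on the Dnmt2-/- array. Fitted background was 90.9 and 94.9 intensity units. The arrays also differed in sex-linked transcripts, with Xist higher on the wild type array (at least 38.3-fold) and Eif2s3y higher on the other (at least 16.7-fold). Genotype label and sex therefore cannot be told apart, and none of the 10 genes lies on a sex chromosome. Dnmt2 itself had 4 probes, all dim. The brightest read 112.4 on the wild type array and 148.8 on the Dnmt2-/- array (log2 ratio 0.62), and the other probe detected on both read 106.0 and 107.6 (log2 ratio -0.27). The last pair was detected on the Dnmt2-/- array only. These probes read 84.1 and 97.1 on the wild type array and 113.3 and 118.2 on the Dnmt2-/- array. After background correction they were at least 1.53-fold and 1.58-fold higher on the Dnmt2-/- array, sizes that rest on signals close to background. Where the probes lie relative to the deleted part is not given in the labels, so they do not check them. Most erythroid, maturing neutrophil and B cell markers were detected on both arrays (12 of 13, 13 of 14 and 7 of 8). So were most markers of skeletal muscle (11 of 11), bone (9 of 10) and cartilage (8 of 12). Detection therefore shows marrow cell transcripts but does not single out marrow. Of the liver and fat markers 1 of 8 was detected, the fat hormone gene Adipoq (log2 ratio -0.31), and albumin was not.

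Of the 10 genes 9 were detected on both arrays by their brightest probe, all but Txnrd1, and none of the 9 reached a 1.5-fold difference. Among all 9746 genes detected on both arrays, 6.61% were at least 1.5-fold higher and 5.16% at least 1.5-fold lower on the Dnmt2-/- array, so 0 of 9 in each direction is near that background. The median log2 ratio of the 9 genes was -0.04, against -0.02 over all genes. Ratios ran from -0.26 for Sod1 to 0.35 for Prdx3. Of the 9, 3 were above 0, 5 below and 1 at 0, where 48.3% of all genes were above 0 and 51.7% below. Within that narrow range the 3 peroxiredoxins were the 3 genes above 0, while both dismutases, catalase, Gpx4 and Gclm lay below. Gpx1, the gene at 0, had the highest signal on both arrays, so quantile normalization fixed its ratio.

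**Figure D1:**
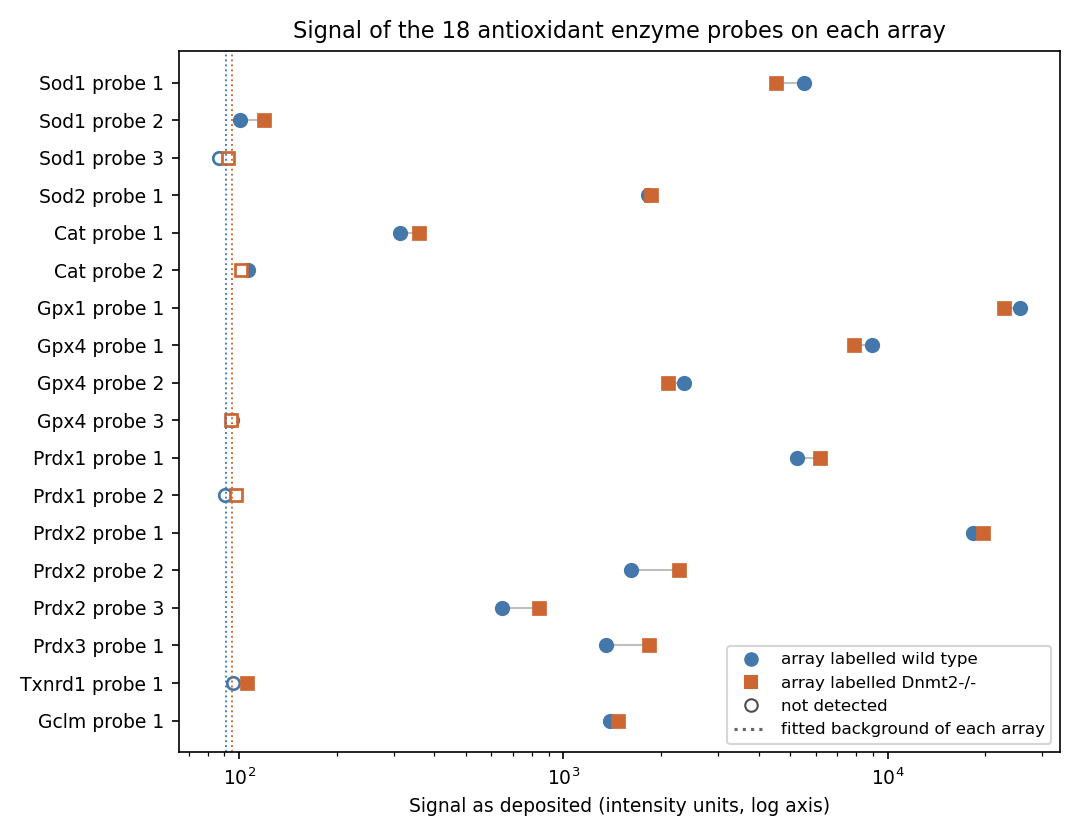
Signal as deposited (horizontal log axis, intensity units) of the 18 probes on the wild type array (circles) and the Dnmt2-/- array (squares), with open symbols where a probe was not detected and dotted lines at the fitted backgrounds of 90.9 and 94.9. Probes are numbered from the brightest of each gene, and pairs of symbols lie close together for every gene, while the dim probes of Sod1, Cat, Gpx4, Prdx1 and Txnrd1 sit at the background lines.

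The peroxiredoxins were the members with the highest ratios among those detected on both arrays. These thiol enzymes reduce hydrogen peroxide with electrons from thioredoxin. Prdx1 and Prdx2 are cytosolic, Prdx2 is among the abundant proteins of red cells, and mice that lack either develop haemolytic anaemia. Prdx3 is the mitochondrial member. Prdx3 had a single probe, with a signal of 1351 on the wild type array and 1836 on the Dnmt2-/- array. That is a log2 ratio of 0.35 (1.28-fold higher), above the ratio of 84.4% of genes. The brightest Prdx1 probe read 5241 and 6200, a log2 ratio of 0.27 (1.21-fold), above 79.3% of genes. Its second probe, with signals of 90.4 and 97.9, was detected on neither array.

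Prdx2 had 3 probes, all detected on both arrays and all higher on the Dnmt2-/- array. The brightest read 18344 on the wild type array and 19698 on the Dnmt2-/- array (log2 ratio 0.13). The second read 1611 and 2274 (log2 ratio 0.43) and the dimmest 646.3 and 842.0 (log2 ratio 0.21). Probes of this transcript thus shared a direction but differed in size, from 0.13 to 0.43. The brightest lies near the top of the intensity scale, as 51st of all probes on the wild type array and 21st on the other. Over 6 other settings the log2 ratio ran from 0.03 to 0.26 for Prdx2, 0.18 to 0.27 for Prdx1 and 0.30 to 0.39 for Prdx3, without a change of sign. With median scaling the median over all genes was 0.14. In that setting the brightest Prdx2 probe was below this median at 0.03, while Prdx1 was at 0.18 and Prdx3 at 0.39. The second and dimmest Prdx2 probes were then at 0.45 and 0.35. By the brightest probes in the main setting, Prdx3 alone exceeded the SD between probes of a gene.

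Prdx4, the peroxiredoxin of the endoplasmic reticulum, is outside the 10 genes and was named after its value was seen. It read 3113 on the wild type array and 3849 on the Dnmt2-/- array, a log2 ratio of 0.29 (1.22-fold). Unlike the 10 genes, Prdx4 lies on the X chromosome, and the arrays differed in sex-linked transcripts. Prdx5 and Prdx6 were looked up too, but no probe was paired with either symbol alone, so they have no value here. Srxn1, the sulfiredoxin that repairs over-oxidised peroxiredoxins, read 196.6 and 241.7, a log2 ratio of 0.07, and its 3 probes lay between -0.25 and 0.07. Most red cell markers moved in the same direction as the peroxiredoxins. The erythroid list had a median log2 ratio of 0.23, in which 9 of 12 genes were higher. Tfrc, Rhag and Klf1 passed 1.5-fold in that direction and 0 of 12 in the other. Ank1 was at 0.55 by its brightest probe and at -0.003 by its other detected probe. The 3 lower genes were Alas2 (-0.24), Sptb (-0.09) and Slc4a1 (-0.03), and Slc4a1 had the highest signal of the list. The summed signal of the list above background was 49795 on the wild type array and 54867 on the Dnmt2-/- array. Epb42 was the defining marker not detected on either. In whole marrow, fewer cells of a type and less RNA per cell cannot be told apart, and the part of cell makeup in the peroxiredoxin ratios was not tested.

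The promoters of the 3 peroxiredoxin genes are shown because these genes shared a direction, beside that of Sod1, the member with the lowest ratio. Each window runs from 250 bases before the annotated start to 50 bases after it, 5′ to 3′ on the gene's strand, from RefSeq (GRCm38.p6). All 10 genes were found in that table. Capitals mark the core of the antioxidant response element, TGACNNNGC, the motif bound by NRF2 with small MAF proteins, searched on both strands.
Prdx1 promoter, chr4:116685349-116685648, plus strand: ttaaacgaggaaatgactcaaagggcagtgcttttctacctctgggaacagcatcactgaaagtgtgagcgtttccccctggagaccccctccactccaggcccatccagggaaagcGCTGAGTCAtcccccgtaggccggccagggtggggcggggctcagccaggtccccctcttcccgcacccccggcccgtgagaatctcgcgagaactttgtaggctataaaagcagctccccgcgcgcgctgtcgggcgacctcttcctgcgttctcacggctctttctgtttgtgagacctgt
Prdx2 promoter, chr8:84969372-84969671, plus strand: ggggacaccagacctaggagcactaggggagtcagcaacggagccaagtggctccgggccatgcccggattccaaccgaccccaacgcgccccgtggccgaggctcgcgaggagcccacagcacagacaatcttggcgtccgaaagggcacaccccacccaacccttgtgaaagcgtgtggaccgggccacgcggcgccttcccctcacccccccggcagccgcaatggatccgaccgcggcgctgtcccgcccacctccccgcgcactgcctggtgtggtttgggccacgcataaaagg
Prdx3 promoter, chr19:60874489-60874788, minus strand: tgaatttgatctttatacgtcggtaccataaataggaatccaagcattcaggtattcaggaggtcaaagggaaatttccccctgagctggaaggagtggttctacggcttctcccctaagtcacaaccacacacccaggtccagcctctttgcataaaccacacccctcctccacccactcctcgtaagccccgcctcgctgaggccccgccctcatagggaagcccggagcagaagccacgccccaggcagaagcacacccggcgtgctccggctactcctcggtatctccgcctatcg
Sod1 promoter, chr16:90220512-90220811, plus strand: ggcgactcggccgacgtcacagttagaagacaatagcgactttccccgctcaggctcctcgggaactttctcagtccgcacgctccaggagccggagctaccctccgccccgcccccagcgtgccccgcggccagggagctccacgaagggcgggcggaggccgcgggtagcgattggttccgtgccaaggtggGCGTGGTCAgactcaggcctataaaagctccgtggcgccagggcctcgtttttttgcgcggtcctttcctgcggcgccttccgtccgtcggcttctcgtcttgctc
In Prdx1 the motif began 133 bases before the start, on the opposite strand, where it overlaps the AP-1 site TGAGTCA. In Sod1 it began 56 bases before the start, also on the opposite strand. The windows of Prdx2 and Prdx3 had no match, which says only that these letters are not in them. Over the 10 genes, 15 windows were listed and 4 held the motif, those of Prdx1, Sod1 and Gclm and 1 of 3 for Txnrd1. The same motif stood in 12.4% of all 32851 listed windows. The motif was thus present in genes with ratios on both sides of 0, and a match is a description of the letters.

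The superoxide dismutases lay below 0 by their brightest probes. Sod1, the copper and zinc enzyme of the cytosol, read 5519 on the wild type array and 4518 on the Dnmt2-/- array by its brightest probe, a log2 ratio of -0.26 (1.19-fold lower), and 23.5% of genes had a lower ratio. Another Sod1 probe, annotated to a separate complementary DNA record (AK086878), read 100.9 and 119.5, a log2 ratio of 0.47, at signals close to background. The last was detected on neither array, at 86.4 and 92.1. The lower value of Sod1 therefore rests on its brightest probe, and the mean of both detected probes gave 0.11. Sod2, the manganese enzyme of mitochondria, read 1828 and 1861, a log2 ratio of -0.06, and kept its sign in 6 other settings (-0.08 to -0.04).

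Other genes of metal handling were measured beside Sod1. Ccs, the chaperone that loads copper into Sod1, was named after its value was seen and read 1069 on the wild type array and 952.6 on the Dnmt2-/- array (log2 ratio -0.35). Atox1, a cytosolic carrier that hands copper to transport pumps, read 2177 and 1635 (log2 ratio -0.52). Mtf1, the zinc-sensing transcription factor, read 818.0 and 492.1, a log2 ratio of -1.06 (2.09-fold lower), and it stayed between -1.06 and -0.91 in 6 other settings. Foxo3, a transcription factor that induces Sod2 and Cat, was at -0.43 (-0.17 at its smallest in another setting). The metallothionein gene Mt1 went the other way, at 5892 and 7963 (log2 ratio 0.51). The list of metallothioneins, FoxO factors and metal regulators had a median of -0.35. In it 5 of 8 detected genes were lower, and Mtf1 was the gene past 1.5-fold.

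Catalase, the haem enzyme of peroxisomes, differed between the arrays by less than the spread between probes of a gene. Its brightest probe read 313.5 on the wild type array and 357.8 on the Dnmt2-/- array. By signal the probe ranked 5354 and 5488 among all probes, and the rank-based normalized log2 ratio was -0.05. With median scaling in place of quantile normalization it was 0.16, against a median of 0.14 over all genes in that setting. A second Cat probe was detected on the wild type array only, at 106.3 and 101.6, and was at least 1.5-fold lower on the other. That size was set by signals a few units above background, and without background correction its log2 ratio was -0.16.

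Gpx1, the selenium enzyme that reduces hydrogen peroxide with glutathione, had the highest signal of all 45281 probes on both arrays. It read 25571 on the wild type array and 22805 on the Dnmt2-/- array. Quantile normalization gives the top probe of each array the same value, so its log2 ratio of 0.00 was fixed by the method. It was -0.23 with median scaling and -0.15 in the authors' processed values. Gpx4, which reduces lipid hydroperoxides in membranes and guards cells against ferroptosis, was lower in both probes detected on both arrays. The brightest read 8945 and 7886 (log2 ratio -0.09) and the second 2350 and 2099 (log2 ratio -0.24). The dimmest Gpx4 probe was detected on neither array, at 95.3 and 94.6. Over 6 other settings Gpx4 ran from -0.25 to -0.08.

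Txnrd1, the cytosolic reductase that recharges thioredoxin, had a single probe near background. It read 95.6 on the wild type array, below the detection limit, and 105.9 on the Dnmt2-/- array, above it, a difference of at least 1.20-fold. Without background correction the log2 ratio was 0.07, so no size can be read from this probe. Gclm, the regulatory subunit of the enzyme that limits glutathione synthesis, read 1390 and 1475, a log2 ratio of -0.04 (1.03-fold). Its catalytic partner Gclc, named after its value was seen, was dim, at 103.5 and 112.6 (log2 ratio 0.07). Thioredoxin itself, Txn1, likewise named afterwards, read 317.1 and 368.9 (log2 ratio -0.02).

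**Figure D2:**
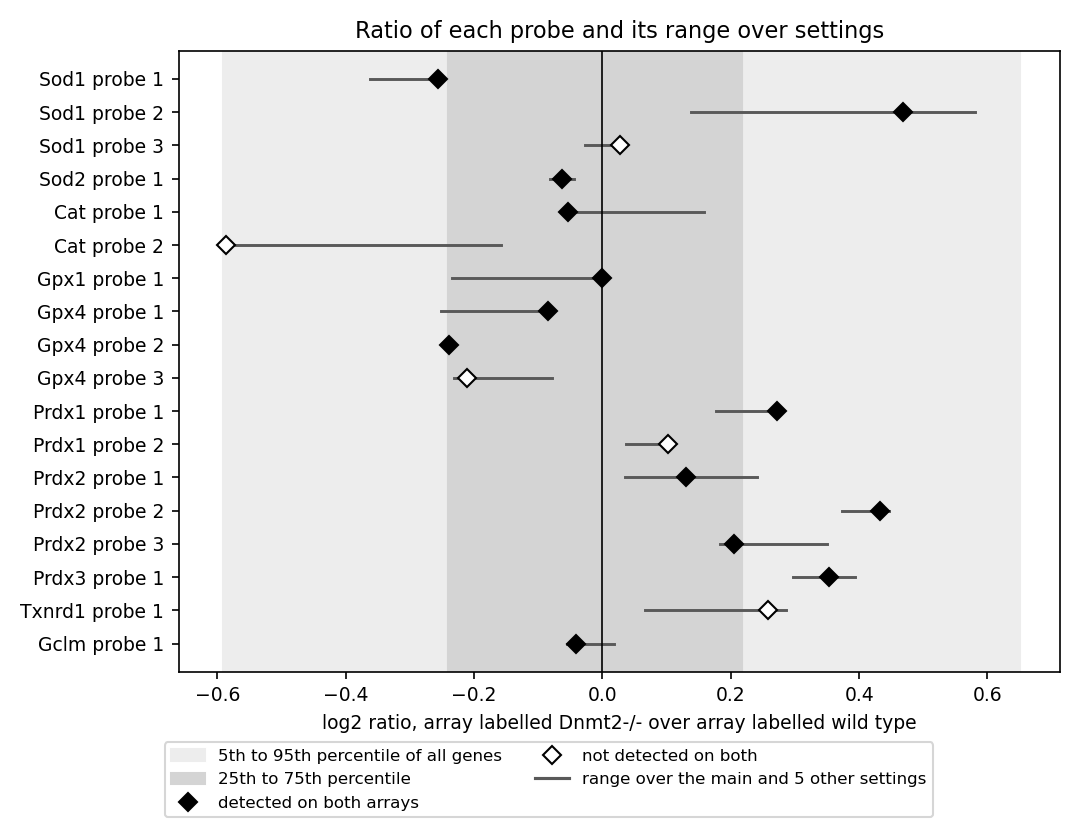
Log2 ratio of the Dnmt2-/- array over the wild type array for each of the 18 probes (diamonds, open where the probe was not detected on both arrays), with lines over the range of the main and 5 other settings and bands for the middle percentiles of all genes. Every diamond lies within the 5th to 95th percentile, -0.59 to 0.65, and the probes of Prdx1, Prdx2 and Prdx3 lie right of 0.

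Most of the 9 genes gave bright signals, and bright genes differ less between arrays. Among 1338 genes with a mean normalized log2 value of 10 or more, the 5th and 95th percentiles of the log2 ratio were -0.46 and 0.50, against -0.59 and 0.65 over all genes. All members but Cat and Txnrd1 were in that bright group. Among those genes Prdx3 had a ratio above 91.2%, Prdx1 above 85.9% and Prdx2 above 72.3%, while 15.9% had a ratio below that of Sod1. All 8 bright members thus lay inside the range that holds most bright genes, Gpx1 at a ratio fixed by quantile normalization.

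Beyond the members, 112 genes of 8 wider antioxidant lists were looked up, of which 106 had a named probe and 90 were detected on both arrays. Of the 90, 36 were higher and 54 lower on the Dnmt2-/- array, with a median of -0.06. At least 1.5-fold differences were found for 3 higher genes and 8 lower genes, 3.33% and 8.89%, beside 6.61% and 5.16% of all genes. The split depended on the setting. Median scaling gave 5 higher and 5 lower, beside 13.75% of all genes at least 1.5-fold higher and 1.84% lower in that setting. Without background correction the lists gave 1 higher (Gpx7) and 4 lower (Mgst2, Hmox1, Cyba and Mtf1), beside 1.91% and 1.08% of all genes. The authors' values gave the same genes, beside 2.31% and 1.27% of all genes. Of the 11 genes past 1.5-fold in the main setting, Gpx7, Cyba and Mtf1 passed it in all 8 alternatives. The list of other peroxiredoxins and glutathione peroxidases had the highest median, 0.36, with 4 of 5 genes higher. Gpx7, a peroxidase of the endoplasmic reticulum, read 304.5 on the wild type array and 539.1 on the Dnmt2-/- array (1.67-fold). Gpx8, in the same compartment, read 771.7 and 1199 (1.42-fold, with log2 ratios of 0.45 to 0.64 over 3 probes), and the secreted Gpx3 read 683.0 and 973.6 (1.28-fold). Gpx2, known from gut epithelium, was lower at 148.0 and 126.4 (log2 ratio -0.92, and -0.40 at its smallest in another setting).

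Most markers of the skeleton and of muscle moved in the same direction as Gpx7 and Gpx8. The median was 0.67 for the bone list (7 of 9 genes higher, summed signal above background of 35466 on the wild type array and 43088 on the other, Dmp1 not detected on either), with Ibsp highest at 1.35. The lower bone genes were Bglap (-0.05) and Bglap2 (-0.14), and Bglap2 had the highest signal of that list. The median was 1.49 for the cartilage list (8 of 8 higher, summed signal 674.4 and 2994, Matn3 not detected), with Col2a1 highest at 1.96. It was 0.83 for the skeletal muscle list (10 of 11 higher, summed signal 7721 and 15442, none undetected), with Mb highest at 1.95 (1.09 at its smallest in another setting). Their part in the ratios of Gpx7, Gpx8 and Gpx3 was not tested.

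Genes of thioredoxin and glutathione use lay near or below 0. The thioredoxin and glutaredoxin list had a median of -0.07 over 13 genes. With median scaling its median was 0.00, against 0.14 over all genes in that setting. Of the 13 genes 9 were lower and 1 passed 1.5-fold. This was the mitochondrial glutaredoxin Glrx2, at 215.0 on the wild type array and 188.6 on the Dnmt2-/- array (log2 ratio -0.69). It stayed below 1.5-fold in 4 other settings, at -0.42 without background correction and with median scaling, -0.45 in the authors' values and -0.54 with an offset of 50. Mitochondrial thioredoxin Txn2 (log2 ratio -0.42), the methionine sulfoxide reductase Msrb1 (-0.50) and the thioredoxin inhibitor Txnip (-0.25) followed. The stress-induced sestrin Sesn2 was not detected on the wild type array (97.1 and 126.8) and was at least 1.90-fold higher on the other, although another probe, detected on both arrays, gave a log2 ratio of 0.13. The brightest Sesn2 probe had a log2 ratio of 0.28 without background correction and 0.32 in the authors' values, so no size can be read from it. The glutathione list had a median of -0.14 over 19 genes, 12 of them lower. The microsomal glutathione transferases Mgst2, at 1003 and 754.0 (log2 ratio -0.65, and -0.53 with median scaling), and Mgst1, at 1487 and 1137 (log2 ratio -0.56), were the lowest, beside Ggct (-0.56) and Gstt2 (-0.35). In the NADPH supply list (median -0.05, 5 of 8 lower), Taldo1, a transaldolase of the pentose phosphate pathway, read 8953 and 6985 (log2 ratio -0.34), Me2 was at -0.35 and Idh1 at 0.15. Nnt, the mitochondrial transhydrogenase, had log2 ratios of -0.90 by the brightest probe (-0.36 at its smallest in another setting) and 0.06 by its other detected probe.

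NRF2, encoded by Nfe2l2, is the transcription factor that induces many of these enzymes, and its targets did not move together. The list of the pathway and its targets had a median of -0.03 over 20 detected genes, 9 higher and 11 lower. With median scaling its median was 0.10, against 0.14 over all genes in that setting. Nfe2l2 itself was near background, at 98.9 on the wild type array and 126.4 on the Dnmt2-/- array (log2 ratio 0.80, and 0.24 at its smallest in another setting). Its partner Mafg was at 0.56, and the repressor Bach1 at -0.46. The targets Gclm (log2 ratio -0.04), Gclc (0.07), Srxn1 (0.07) and Nqo1 (-0.17) were close to equal, as was the NRF2 inhibitor Keap1 (0.15). The list was counted without the members. Among the other members with the motif in a promoter window, Prdx1 was at 0.27 and Sod1 at -0.26. Txnrd1, near background, was at least 1.20-fold higher on the Dnmt2-/- array. Nqo1, Srxn1 and Keap1 were named after their values were seen, and each had the opposite sign in 1 of 6 other settings. Hmox1, the haem-degrading target, was lower at 424.2 and 323.6 (log2 ratio -0.78, and -0.58 with median scaling), and it is also in the macrophage list.

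Genes of selenium use, which Gpx1, Gpx4 and Txnrd1 need because each carries selenocysteine, went both ways. The list had a median of 0.12 over 19 detected genes, 10 higher and 9 lower. Selenof of the endoplasmic reticulum read 1274 on the wild type array and 2054 on the Dnmt2-/- array (1.52-fold). It was just below that threshold without background correction (log2 ratio 0.58) and in the authors' values (0.54). Eefsec, the elongation factor that delivers selenocysteine, was at -0.85 with dim signals of 133.3 and 117.8 (-0.33 at its smallest in another setting), and Selenow at -0.55. The median of this list turned to -0.05 when the mean of a gene's detected probes stood for it.

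In the list of the phagocyte NADPH oxidase and myeloperoxidase, which make oxidants, 6 of 6 detected genes lay below 0 by their brightest probe, with a median of -0.23, and 1 passed 1.5-fold. Cyba, the membrane subunit of the oxidase, read 4494 on the wild type array and 2909 on the Dnmt2-/- array (log2 ratio -0.65), and was the gene past 1.5-fold. The cytosolic subunits Ncf4 and Ncf1 were at -0.48 and -0.32. Rac2 (-0.15), Rac1 (-0.08) and Mpo (-0.06) lay within the SD between probes of a gene, and the 4 Mpo probes ran from -0.20 to 0.34. Cybb, the catalytic subunit of the oxidase, was detected on neither array. Rac1, Mpo and Cybb were named after their values were seen. Most phagocyte markers moved in the same direction as these genes. The macrophage list had a median of -0.53 (8 of 9 genes lower, summed signal above background of 5824 on the wild type array and 5199 on the other, Cd5l not detected), with Adgre1 at -0.90, C1qc at -0.84 and C1qa at -0.70. Its higher gene was Csf1r, at 0.20. The maturing neutrophil list had a median of -0.26 (10 of 13 lower, summed signal 108792 and 98145, none undetected on both), with Pglyrp1 at -0.78 and Csf3r at -0.76. Its higher genes were Mmp9 at 0.80 and the bright S100a8 (0.13) and S100a9 (0.08). Pglyrp1 was at -0.32 by the mean of its detected probes, and Csf3r at -0.46 without background correction. The early neutrophil list had a median of -0.11 (6 of 6 lower, 22843 and 20867), with Fcnb lowest at -0.54. By their brightest probes, all of its genes but Fcnb lay within the SD between probes of a gene. Mpo is in both this list and the oxidase list. The B cell list had a median of 0.16 (5 of 7 higher, 9563 and 10159, Pax5 not detected), with Ms4a1 highest at 0.79 (0.25 at its smallest in another setting). The part of these cells in the ratios of the oxidase genes, of Hmox1 and of the members was not tested.

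**Figure D3:**
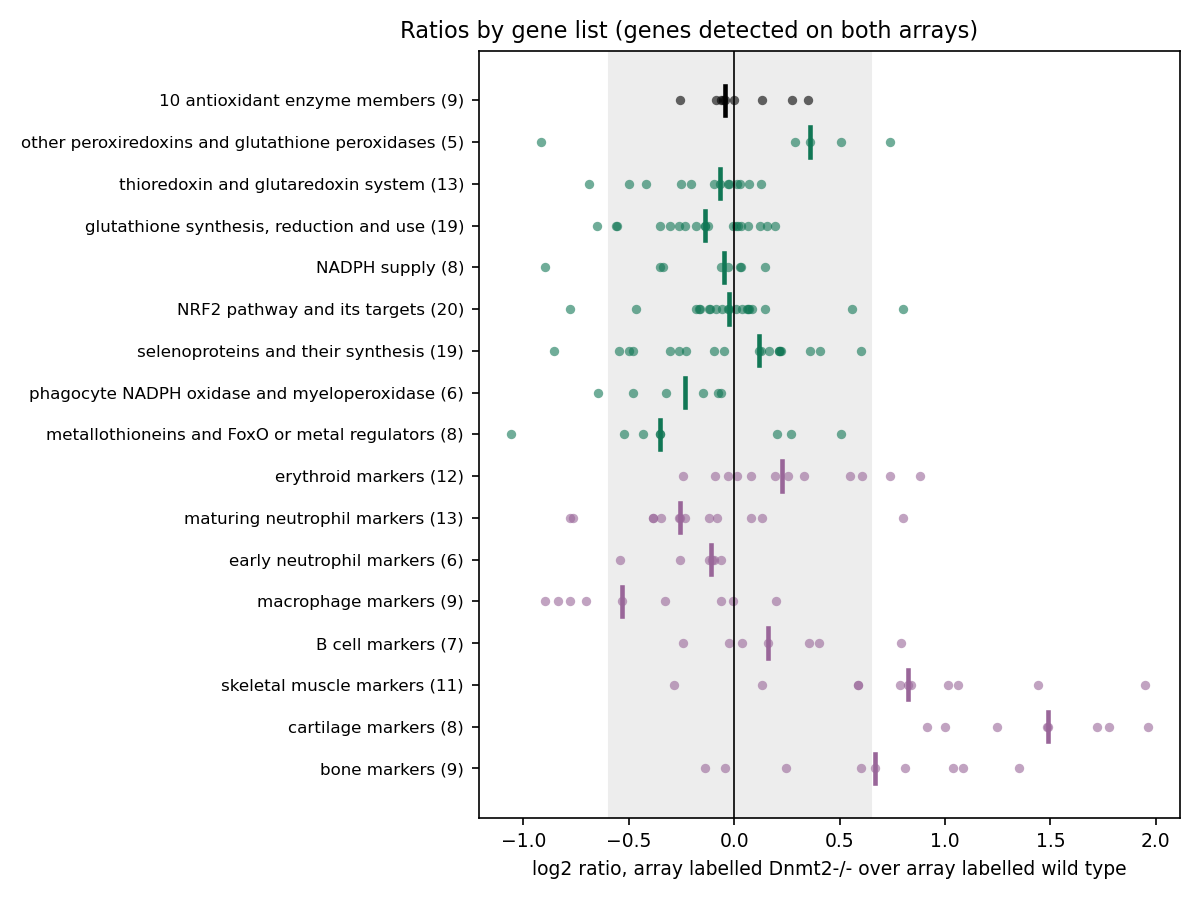
Log2 ratios of genes detected on both arrays (points) by list, with the median of each list as a bar, the number of genes in brackets and the 5th to 95th percentile of all genes, -0.59 to 0.65, shaded. The members stay within -0.26 to 0.35, whereas muscle and cartilage markers reach far to the right and the oxidase and macrophage genes lie mostly to the left.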

How the data were processed

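Signal intensity in 2 marrow RNA samples, 1 per genotype label, was measured on Illumina MouseWG-6 v2.0 arrays from Trizol-extracted, biotin-labelled RNA, per the labels' protocols. The deposited non-normalized table gives a linear intensity per probe, without background subtraction, and the deposited detection p-value. The other deposited table has processed intensities, and the labels and headers do not say how the authors made them. It was linear, not centred, with medians of 101.8 and 101.1, followed the direction of each array's signal, left 1071 probes blank and served as an alternative.

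Background was corrected with normexp in limma 3.58.1 (R 4.3.3), inferred from detection p-values, with an offset of 16, then log2 and quantile normalization over all probes. The offset shrinks ratios of dim probes. The brightest probe stood for a gene. A gene detected on 1 array has a bound, "at least N-fold", against the higher of its own value and the lowest detected value. Probes were named from the platform annotation (34885 with 1 symbol, 18 with several, 10378 unnamed), and 34807 were matched by Entrez identifier to GRCm38.p6 without any change of symbol. The tables name no build.

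The functions were tested on simulated arrays. Members and lists were chosen with earlier results of these data known. The text names all members, Dnmt2, and, per antioxidant list, up to 4 detected genes with the largest ratios plus those past 1.5-fold. The rule covered marker lists too, of which only some such genes are named and the others counted. A list needed 3 detected genes for a median. This minimum, the bright group and the measure of what moved were chosen after the data were seen. No gene was named for a pattern like a member's, since 2 arrays give none. Alternatives were no background correction, an offset of 50, median scaling, cyclic loess, the authors' values, the mean of detected probes, a detection p-value of 0.05 and no filter. Precision is limited by the number of arrays. A planned comparison of protein sequences was not made.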

Additional observations from a re-analysis of the deposited data

How the results depend on the processing

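No paired analysis was possible because each genotype has 1 array. A value was said to move when it changed by more than the SD between probes of a gene, 0.29, or, for a count, by more than 1.5 times. Of 955 alternative values, 854 did not move and 101 did, and no difference of at least 1.5-fold changed sign. Of the members, 0 reached 1.5-fold in any of the alternatives, and 6 of 10 kept their sign in every one (Sod2, Gpx4, Prdx1, Prdx2, Prdx3 and Txnrd1). Sod1 turned to 0.11 with the mean of its probes. Cat and Gclm turned to 0.16 and 0.02 with median scaling, where the median over all genes was 0.14. The median of the members ran from -0.05 to 0.02, the latter with median scaling. Median scaling raised the median of all genes by 0.16 and gave 1340 genes at least 1.5-fold higher and 179 lower (88.2% higher), against 644 and 503 (56.1% higher). The counts were 186 and 105 without background correction, 294 and 189 with an offset of 50, and 220 and 121 in the authors' values, and the cause was not tested. The cartilage median moved to 0.87 without background correction, 1.11 with an offset of 50 and 0.98 in the authors' values, with no test of the cause. Over all wider antioxidant lists, the 3 higher and 8 lower genes became 1 and 4 without background correction, 2 and 4 with an offset of 50, 5 and 5 with median scaling, and 1 and 4 in the authors' values. Of the counts within single lists, 28 moved, each by 1 gene. Dim probes, among them Txnrd1, the second Cat probe and the second Sod1 probe, lie too close to background for a size.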

Other observations

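Some antioxidant genes outside the members had probes that disagreed, as did the detected Sod1 probes (-0.26 and 0.47). They were chosen after their values were seen. Txnrd2, the mitochondrial thioredoxin reductase, had log2 ratios of -0.10 and -1.13 in 2 probes detected on both arrays. Nnt had -0.90 and 0.06, and the transketolase gene Tkt had 0.03 in its brightest of 3 probes and -0.62 in its lowest. Selenot had 0.22 in its brightest of 4 probes and -0.57 in its lowest.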
